A study of Rattus norvegicus with 8 samples.

Results

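Nuclei with RNA of Scn7a and Cdh19 and without RNA of the myelin and satellite glia genes named below were picked from the nodose ganglia of young adult rats. A nucleus was kept when its raw counts of unique molecular identifiers (UMIs, 1 per captured transcript) were at least 2 for Scn7a, at least 1 for Cdh19 and 0 for Prx, Mag, Kcnj10 and Fabp7, and when Scn10a and Slc17a6 together gave no more than 2. The rule kept 2447 of 36741 nuclei, which is 6.66%, and these nuclei are called the members. The rule uses measured values, so the levels of these 8 genes in the members are a description of the choice and not a result. The working name of the set, non-myelinating Schwann-type nuclei, was checked against the data and was not upheld: the rule gathered nuclei of several kinds, and the text calls them by the rule or by their leading genes.

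The ganglia came from untreated Long Evans rats aged 8 weeks, without any engineered allele named in the labels. Each of the 12 pools combined the ganglia of 1 side from 6 rats, with 3 pools for each combination of labelled sex and side: ML1 to ML3 (male, left), MR1 to MR3 (male, right), FL1 to FL3 (female, left) and FR1 to FR3 (female, right). The nuclei of all pools were spread over 8 sublibraries, which measure technical spread only. The design compares left with right ganglia and males with females. Both ganglia of each rat were dissected, so left and right pools of a sex draw on the same rats, but the labels do not say that pools of the same number do.

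Schwann cells descend from the neural crest and ensheath the axons of peripheral nerves. Myelinating Schwann cells wrap single large axons in a myelin sheath that contains the proteins of Mbp and Pmp22, while non-myelinating Schwann cells hold bundles of thin unmyelinated axons, the kind that make up most of the vagus nerve. Satellite glia cover the cell bodies of sensory neurons in the ganglion. Scn7a encodes Nax, a sodium-sensing relative of the voltage-gated sodium channels that is known in glia and also in sensory neurons, and Cdh19 encodes a cadherin of the Schwann lineage. Prx and Mag belong to myelinating Schwann cells, Kcnj10 and Fabp7 to satellite glia, and Scn10a and Slc17a6 (the sodium channel Nav1.8 and a vesicular glutamate transporter) to sensory neurons.

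Members had a median of 1975 UMIs and 1327 genes, against a median of 2755 UMIs in all other nuclei, and ranged from 781 to 18551 UMIs. Summed over the members, pools held from 201530 UMIs (FL2) to 1037161 UMIs (FR2). Of all nuclei, 3808 (10.4%) carried a barcode that also occurs in another sublibrary, and 22 members (0.899%) shared theirs with another member. Summed RNA of 4 Y-linked genes (Usp9y, Eif2s3y, Kdm5d and Ddx3y) went against the sex label in 2 pools. In the members it was 1.84 CPM (counts per 1000000 UMIs) in ML1 and between 81.2 and 126 CPM in the other male-labelled pools. It was 121 CPM in FL1 and between 3.14 and 6.13 CPM in the other female-labelled pools. Results by labelled sex are therefore given with and without ML1 and FL1.

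Of the 2 genes that had to be present, Scn7a was also common in neuron-type nuclei, while Cdh19 was rarer there. Among 10120 neuron-type nuclei, chosen by at least 5 UMIs of Scn10a and Slc17a6 together and 0 of the 4 glial genes, 89.5% had at least 2 UMIs of Scn7a and 16.2% had at least 1 UMI of Cdh19, at a median of 4736 UMIs. After every nucleus had been thinned to 1000 UMIs, Cdh19 was seen in 4.21% of 10089 neuron-type nuclei and in 62.0% of 2252 members (31 and 195 nuclei were too shallow). In the 192 myelinating Schwann-type nuclei that were deep enough (at least 1 UMI each of Prx and Mag, 0 of Kcnj10 and Fabp7 and no more than 2 of Scn10a and Slc17a6 together) it was seen in 57.8%, at a median of 1937 UMIs before thinning. The value in the members is left over from the rule, which required Cdh19 of them alone. It is therefore no measure of how they differ from, or resemble, the other 2 kinds.

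Most members met the Cdh19 criterion by a single transcript. Cdh19 was at 1 UMI in 1435 members (58.6%), at 2 or 3 UMIs in 817 and at 4 or more in 195. Levels of other genes moved with this count. Lama2, a laminin chain of the basal lamina, was at 914 CPM in members with 1 UMI of Cdh19, at 1609 CPM with 2 or 3 and at 1929 CPM with 4 or more, while the neuronal synaptic gene Snap25 was at 1364, 1135 and 1045 CPM in the same order. Map1b, a microtubule protein abundant in neurons, had no such order, at 7212, 7946 and 7381 CPM.

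On the neuronal side, Scn10a and Slc17a6 together were at 0 in 1133 members, at 1 in 782 and at 2 in 532. Lama2 was at 1722, 1137 and 796 CPM in this order, and was at 743 CPM in the 349 nuclei just outside the limit, with 3 UMIs. Map1b was at 6203, 7613 and 8994 CPM, and was at 8887 CPM just outside. Just inside the Scn7a limit, 304 members had 2 UMIs, and 275 nuclei just outside had 1. Lama2 was at 787 CPM in the former and 694 CPM in the latter. Another 7372 nuclei failed only for want of Cdh19, with Lama2 at 319 CPM, and 2603 failed only because they held Prx, Mag, Kcnj10 or Fabp7, with Lama2 at 2179 CPM.

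Genes of the Schwann lineage were nonetheless higher in the members than in the remaining nuclei, though never to the level of myelinating Schwann-type nuclei. Levels were summed per pool and given as CPM, and lists exclude the 8 genes of the rule. The Schwann lineage list (13 genes, Sox10 and Erbb3 among them) was at 3318 ± 528 CPM in members (SD, n = 12 pools), with FL3 lowest at 2325, a median of 3344 and FL2 highest at 4332. It was at 1697 ± 302 CPM in all other nuclei and, summed over pools, at 11840 CPM in myelinating Schwann-type, 3008 CPM in satellite-type nuclei (Kcnj10 and Fabp7 present, Prx and Mag absent, with the same neuronal limit) and 1015 CPM in neuron-type nuclei. Because the members were chosen on counts of the same nuclei, these comparisons carry no test. Of 4141 genes with a mean of at least 50 CPM over both groups, 225 (5.43%) were at least 2-fold higher in the members and 55 (1.33%) at least 2-fold lower, and the median ratio was 1.02.

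**Figure D1:**
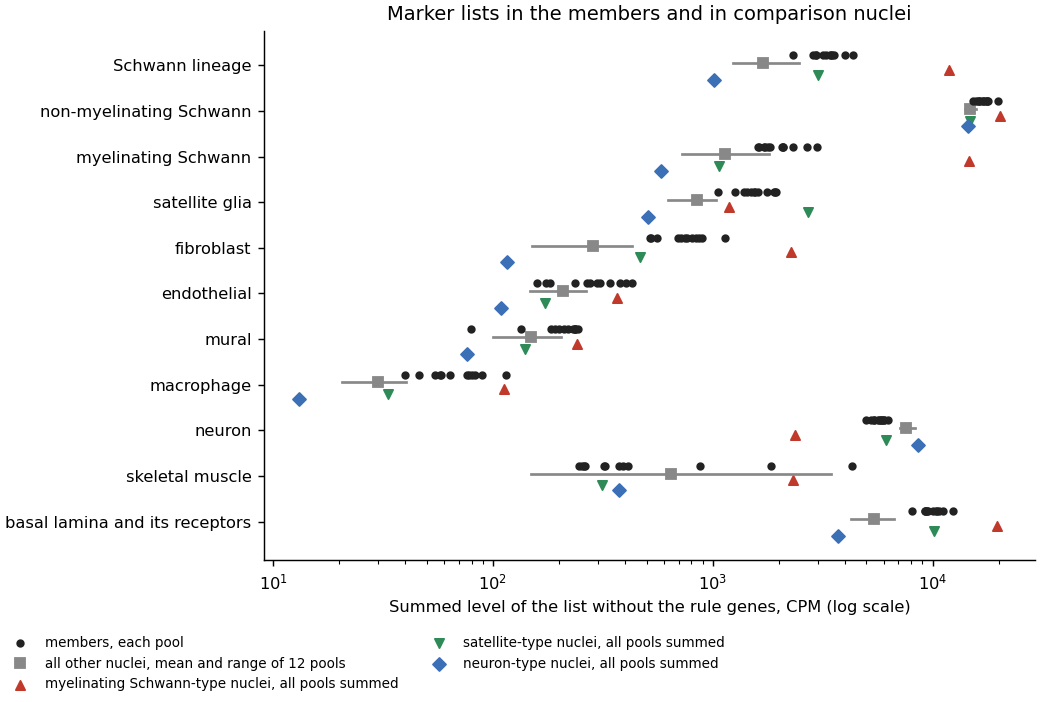
Summed level of each marker list, in CPM on a log axis, in the members of each of the 12 pools (black points), in all other nuclei (grey square, mean, with a line over the range of the pools) and in the myelinating Schwann-type, satellite-type and neuron-type nuclei summed over pools. Members sit above the other nuclei for the Schwann lineage list in the mean (3318 against 1697 CPM), far below the myelinating Schwann-type nuclei (11840 CPM). They also sit above the other nuclei for the satellite glia (1572 against 846 CPM) and fibroblast (755 against 285 CPM) lists. For the neuron list they sit below the other nuclei (5691 against 7540 CPM), and the pools of the 2 groups do not overlap.

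Among transcription factors of the lineage, Sox10, which specifies all peripheral glia, ranged from 39.8 to 139 CPM over the pools of members, with a mean of 84.0 ± 24.9 CPM (SD, n = 12), 2.81 times the mean of other nuclei. Sox6 was at 389 ± 84.9 CPM, 2.95 times that mean. The neuregulin receptor Erbb3, through which axons support Schwann cells, had its lowest pool at 142, its median at 177 and its highest at 233 CPM. All 12 pools of members were above 88.4 CPM, the highest pool of other nuclei. Of 8 Schwann lineage genes past 50 CPM, 6 were at least 2-fold higher in members and 0 lower, but 31.7% of the members had any UMI of Erbb3 and 17.8% any of Sox10.

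The list of non-myelinating Schwann genes gave a divided picture. Of its 15 genes past 50 CPM, 7 were at least 2-fold higher in members and 1 was at least 2-fold lower. Sorcs1, a sorting receptor, was at 874 ± 92.4 CPM against 380 CPM in other nuclei, and Cadm2, a cell adhesion molecule of axons and glia, at 2241 ± 474 against 843 CPM (SD, n = 12). Col28a1, a collagen of peripheral glia, was at 302 ± 70.3 against 98.8 CPM. The classical surface markers did not follow. Ngfr, the low-affinity neurotrophin receptor, was at 418 ± 63.8 CPM in members and 976 CPM in other nuclei, and was lower in members in 12 of 12 pools.

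L1cam, an adhesion molecule of unmyelinated axons and their Schwann cells, was at 352 ± 64.4 against 542 CPM, also lower in every pool. Ncam1, another such molecule, was at 1092 ± 97.9 against 1031 CPM, a ratio of 1.06. Gfap, the intermediate filament gene often used to mark these cells, was at 4.16 ± 3.59 CPM and was seen in 1.06% of members. Each of Ngfr, L1cam and Ncam1 was higher in neuron-type nuclei than in members (1403, 666 and 1114 CPM).

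RNA of neurons was abundant in the members. The neuron list was at 5691 ± 367 CPM (SD, n = 12), between 4992 CPM in FL2 and 6287 CPM in MR2, while the other nuclei ranged from 7086 to 8355 CPM over pools. All 10 of its genes outside the rule had lower means in members than in other nuclei, none of them by 2-fold. Snap25 was at 1239 ± 125 against 1576 CPM, and Nefl, a neurofilament subunit, at 910 ± 190 against 961 CPM. The median UMI count of the members moved with their neuronal counts: 1605 in members without Scn10a and Slc17a6 and 2671 in those with 2 UMIs. The part of depth in the neuronal RNA was not tested.

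Laminins, their receptors and the dystroglycan complex, by which Schwann cells attach to their basal lamina, were among the more uniform groups. Of 20 genes past 50 CPM, 10 were at least 2-fold higher in members and 0 lower. Lama2 had its lowest pool at 837, its median at 1242 and its highest at 1747 CPM, and its mean was 1281 ± 246 CPM (SD, n = 12) against 461 CPM in other nuclei. Itgb4, the laminin-binding integrin of Schwann cells, was at 501 ± 104 against 179 CPM, Dmd (dystrophin) at 2046 ± 322 against 840 CPM, and Hspg2 (perlecan) at 433 ± 93.5 against 147 CPM. The collagen IV genes did not follow: Col4a1 was at 385 ± 45.8 against 458 CPM and Col4a2 at 320 ± 35.5 against 377 CPM.

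Of 18 genes of signals between axon and Schwann cell, 11 had higher means in the members. The median ratio over all genes past 50 CPM was 1.02, so this count alone does not set the list apart. Erbb3 was among the 11, as were the adhesion receptor Adgrg6 that drives myelination (226 ± 53.0 against 77.0 CPM) and the lysophosphatidic acid receptor Lpar1 (331 ± 75.8 against 139 CPM), while the receptor Ngfr was lower (418 against 976 CPM). Lgi4, a secreted protein that Schwann cells need for myelination, was at 193 ± 60.2 against 65.3 CPM. The neuronal ligand Nrg1 was at 778 ± 116 against 927 CPM and its relative Nrg2 at 118 ± 34.0 against 166 CPM. Of 16 genes on this list past 50 CPM, 7 were at least 2-fold higher and 1, Ngfr, at least 2-fold lower. Of all 4141 genes past that level, 5.43% were higher and 1.33% lower by as much.

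The 20 leading genes by ratio were all between 2.95 and 3.50 times as high in members as in other nuclei, and higher in members in 12 of 12 pools. Grin2b, an NMDA receptor subunit, led with a ratio of 3.50: its lowest pool of members was at 168, the median at 247 and the highest at 326 CPM, and the pools of other nuclei ranged from 28.7 to 119 CPM. The groups of pools did not overlap for Grin2b. After it came St8sia6 (a sialyltransferase, ratio 3.21), Adarb2 (an RNA-editing enzyme homologue, 3.18), Rasgef1c (3.17), the integrin Itgb3 (3.14), Ctxnd1 (3.10), the heparan sulfate proteoglycan Sdc4 (3.07) and Col28a1 (3.06). Prrg4, the nuclear receptor Nr2f1, the selenium carrier Selenop and the procollagen-processing protease Tll1 followed at 3.03 to 3.04. Erbb3, the lipid transporter Abca8a, Frmd6, Arhgef26, Niban1, the integrin Itgb8, Lgi4 and Hspg2 made up the rest.

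These leading genes were not particular to the members. Summed over pools, all 20 were higher in myelinating Schwann-type nuclei than in the members: Grin2b reached 860 CPM, Adarb2 1552 CPM, Abca8a 2780 CPM and Hspg2 1473 CPM. In neuron-type nuclei the same genes were at 17.2, 41.4, 151 and 38.5 CPM. On these genes members lay between the 2 kinds of nuclei.

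Variation among the members was led by muscle and axon genes. The 15 genes of highest Pearson residual variance, among 7103 seen in at least 5% of members, included Ttn, Myh4, Kcnip4, Asic2, Cntnap2, Neb, Dpp10, Ctnna3, Cntn5, Map1b, Kirrel3, Cadm2, Nefm and Rbfox1. Ttn (titin), Myh4 (a fast myosin heavy chain) and Neb (nebulin) build the sarcomere of skeletal muscle, and FR2 held 70.5%, 64.8% and 42.8% of their UMIs. Kcnip4, Asic2, Cntnap2 and Dpp10 are genes of neuronal excitability. Of these 15 genes, 1 was on the list of non-myelinating Schwann genes, Cadm2.

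Clustering the members without the genes of the rule, Y-linked and mitochondrial genes gave 10 sub-clusters at a resolution of 0.3, and the glial ones were a minority. Sub-clusters 2 and 3, led by glial genes, held 717 members (29.3%). Sub-clusters 4, 5, 6, 7 and 9, led by genes of sensory neurons, held 865 (35.3%). Sub-cluster 1, with 747 members (30.5%), had only weak leading genes. Sub-cluster 8 (82 members, 3.35%) was led by vascular genes and sub-cluster 10 (36 members, 1.47%) by muscle genes. Since sub-clusters were made from the same counts, the gene levels that follow describe them and were not tested.

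**Figure D2:**
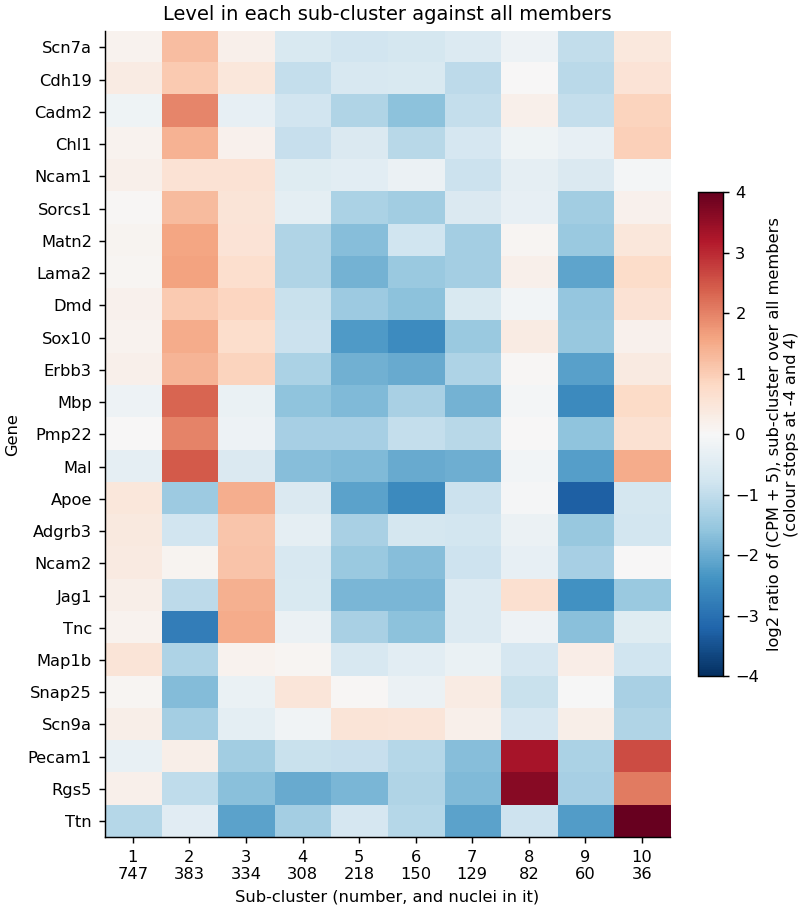
Level of 25 genes in each of the 10 sub-clusters, as the log2 ratio of (CPM + 5) in the sub-cluster over that in all members, with red above and blue below and the colours ending at a size of 4. Sub-cluster 2 stands above the rest for Scn7a (a gene of the rule), Cadm2, Lama2 and Mbp. Sub-cluster 3 does so for Apoe, Adgrb3, Jag1 and Tnc, sub-cluster 8 for Pecam1 and Rgs5 and sub-cluster 10 for Ttn.

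Sub-cluster 2 (383 members) carried the most Scn7a and Cdh19 together with myelin RNA. Its median of 1357 UMIs was 0.687 times that of all members. The part of low depth in its lack of Prx and Mag, and in its levels of Scn7a and Cdh19, was not tested. Scn7a was at 6694 CPM, against 2423 CPM in the remaining members, and Cdh19 at 1440 against 621 CPM. Both are genes of the rule, whose minimum UMI counts are larger CPM values in shallower nuclei. By pool, Scn7a in this sub-cluster ranged from 5184 CPM (MR3) through a median of 6452 to 7523 CPM (FR1), from 11 to 73 nuclei per pool. Among its leading genes were Mlip (14.1-fold over the other members), the kinase Prkcq (12.8-fold), Tll1 (12.7-fold), Grin2b (12.6-fold) and Bcas1 (12.1-fold), with 5 CPM added to both sides. Neuronal RNA was low there: the neuron list was at 1818 CPM, and all 9 of its genes past 50 CPM had at most 0.5 times their level in other members, against 17.9% of all 4227 genes past that level.

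Several non-myelinating Schwann genes were high in sub-cluster 2. Of 16 such genes past 50 CPM, 8 exceeded the other members by at least 2-fold and 2 lay below them by as much, against 11.6% of all genes for the higher side. Cadm2 was at 8572 against 1548 CPM (5.54-fold), Chl1, an L1-family adhesion molecule, at 1773 against 561 CPM (3.16-fold), Matn2, a matrix protein, at 1280 against 335 CPM (3.82-fold) and Sorcs1 at 2093 against 737 CPM (2.84-fold). By pool, Cadm2 ran from 6335 CPM (MR3) to 10184 CPM (FL2) and Chl1 from 1267 CPM (MR3) to 1983 CPM (FL1). Ngfr was among those that were lower, at 223 against 452 CPM.

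Myelin genes were at least as marked. Of 7 myelinating Schwann genes past 50 CPM outside the rule, 6 exceeded the other members by at least 2-fold, among them Mbp (1668 against 188 CPM), Pmp22 (2725 against 468 CPM), Mal (337 against 27.9 CPM), Fa2h and Gldn. By pool, Pmp22 in sub-cluster 2 ranged from 1966 CPM (FL1) through a median of 2693 to 3648 CPM (MR3). All pools lay below the 4296 CPM of the myelinating Schwann-type nuclei, in which Mbp was at 2296 CPM. Cadm2 (5760 CPM) was lower in those nuclei than in sub-cluster 2. Scn7a (4423 CPM) was lower too, but the rule required it of the members only.

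The basal lamina genes were also high in sub-cluster 2, with 14 of 21 at least 2-fold above the other members and 0 below. Itga6, a laminin-binding integrin, was at 563 against 95.6 CPM, Hspg2 at 1712 against 292 CPM and Lama2 at 3854 against 981 CPM. The fibroblast list was higher there too, at 2382 against 554 CPM, and all 4 of its genes past 50 CPM exceeded the other members by at least 2-fold, the collagens Col1a1 (587 against 139 CPM) and Col3a1 (788 against 155 CPM) among them. Among the list's genes below 50 CPM, Pdgfra was at 15.001 against 7.34 CPM, Pi16 at 3.33 against 2.33 CPM and Ccl11 at 0 in both. The part of fibroblast RNA in the basal lamina levels was not tested. P2rx7, an ATP-gated channel, was at 367 against 62.3 CPM, and the kainate receptor subunit Grik2 at 3612 against 1350 CPM.

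A finer clustering at resolution 1 divided sub-cluster 2 into groups that differed in their myelin RNA. Of its 383 members, 164 formed a group led by Tll1, Prkcq and Adarb2, 122 a group led by genes that included Sptbn5 and Cldn19, a claudin of myelin, and 93 fell in a group led by Grin2b. The Tll1-led group of 164 nuclei (6.70% of the members) had Scn7a at 7521, Chl1 at 2152, Ncam1 at 1855 and Pmp22 at 2122 CPM. The Sptbn5-led group (122 nuclei) had Scn7a at 5024, Chl1 at 1303, Ncam1 at 1258 and Pmp22 at 4430 CPM, the last close to the value in myelinating Schwann-type nuclei. Of the sub-clusters found, the Tll1-led group had the highest level of the non-myelinating Schwann list, 29461 CPM, next to a myelinating Schwann list at 7595 CPM.

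Sub-cluster 3 (334 members) was led by Elovl2, a fatty acid elongase (4.44-fold), the surface glycoprotein Pdpn (4.38-fold), Fbln2, a matrix protein (4.23-fold), Tmem26 and Tnc, a matrix glycoprotein of repair and development (3.89-fold). Its Scn7a level of 3294 CPM was close to that of all other members (2765 CPM). Of 5 satellite glia genes past 50 CPM, 4 exceeded the other members by at least 2-fold, as did 5 of 9 Schwann lineage genes and 5.88% of all 4271 genes. Apoe, the lipid carrier made by satellite glia, was at 2118 against 556 CPM, and its level by pool ran from 1538 CPM (FR1) through 1983 to 2630 CPM (FR2). Satellite-type nuclei, of which there were 30, had Apoe at 1371 CPM.

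Of 16 genes of the axon signal list past 50 CPM, 7 were at least 2-fold higher in sub-cluster 3 and 3 at least 2-fold lower, where 9.23% of all genes were lower by as much. Adgrb3, an adhesion receptor, was at 6322 against 2376 CPM and, by pool, from 5454 CPM (MR2) to 7796 CPM (FR1). The Notch ligand Jag1 was at 321 against 83.8 CPM and its receptor Notch1 at 270 against 94.9 CPM. Ednrb, the endothelin receptor of neural crest glia, was at 174 against 49.8 CPM and Grik3 at 193 against 67.9 CPM. Of 5 myelinating Schwann genes past 50 CPM, 0 were higher by 2-fold, and Mbp was at 273 against 341 CPM. Neuronal RNA was higher than in sub-cluster 2, with Snap25 at 1049 CPM, and 2 of 9 neuron genes lay at least 2-fold below the other members. Snap25 was at 1252 CPM in all members. Map1b was at 8307 CPM in sub-cluster 3, above the 7481 CPM of all members and the 3147 CPM of sub-cluster 2.

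Sub-clusters 4, 5, 6, 7 and 9 were led by other genes, several of them known from neurons. Sub-cluster 4 was led by Nxph1, a secreted ligand of neurexins (9.86-fold), sub-cluster 5 by Tafa1 (18.8-fold) and the cold-sensing channel Trpm8 (16.4-fold), sub-cluster 6 by Fhip1a (10.6-fold), sub-cluster 7 by Caln1 (8.61-fold) and Robo1 (7.65-fold), and sub-cluster 9, among genes with a symbol, by Xylt1 (12.97-fold) and the secretin receptor Sctr (10.6-fold). The neuron list was between 5563 and 7103 CPM in these 5 sub-clusters, and the Schwann lineage list between 821 and 1400 CPM, near the 1015 CPM of neuron-type nuclei. In them, 78.3% of nuclei had a single UMI of Cdh19, against 37.7% in sub-clusters 2 and 3. In sub-cluster 8, 8 of 8 endothelial and 6 of 6 mural markers past 50 CPM were at least 2-fold above the other members, as were 9.8% of all 4428 genes past that level.

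Sub-cluster 1 had no strong leading gene. Cartpt, a neuropeptide gene, led by 2.98-fold. Its first 10 genes included 2 of the non-myelinating Schwann list, Apod, a lipid-binding secreted protein (2.19-fold), and Ngfr (2.17-fold, 731 against 334 CPM). It held Map1b at 10631 CPM, Apoe at 1057 CPM, Mbp at 286 CPM and Cdh19 at 874 CPM, so that neuronal and glial RNA occurred in the same sub-cluster. Its median of 1611 UMIs was 0.816 times that of all members, while sub-clusters 4 and 7 had medians of 3335 and 3498 UMIs.

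The makeup of the members varied between pools. Sub-clusters 2 and 3 together made up between 21.99% (MR2) and 46.2% (FL2) of the members of a pool, with a median of 29.3%. The neuron-gene sub-clusters ranged from 23.3% (FR2) to 48.8% (FL3) and sub-cluster 1 from 16.7% (ML1) to 40.1% (FR2). The muscle sub-cluster came mostly from 1 pool: 29 of its 36 nuclei were in FR2 (80.6%), and 8 of the 12 pools had 0. A list value per pool thus depends on which kinds of nuclei the rule gathered there.

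**Figure D3:**
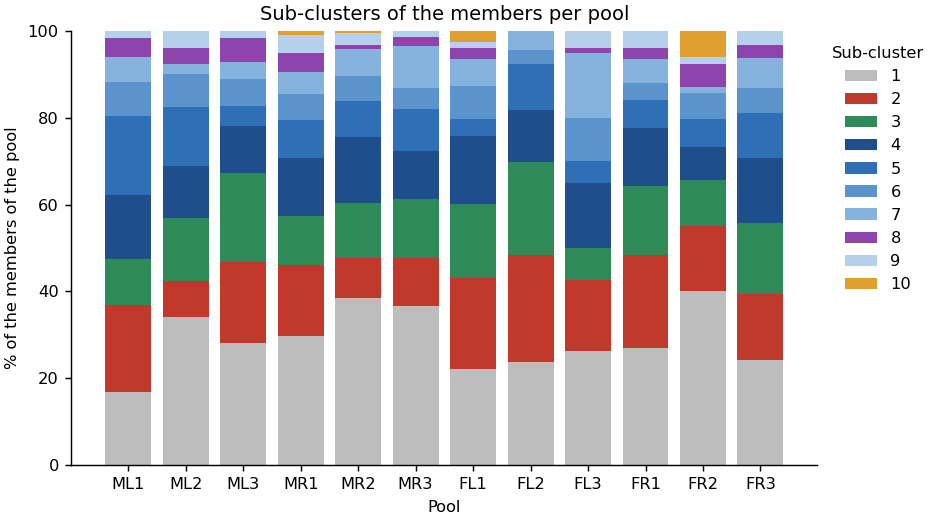
Share of each of the 10 sub-clusters among the members of each pool, in percent, stacked to 100. Sub-clusters 2 (red) and 3 (green) together make up from 21.99% of the members in MR2 to 46.2% in FL2, blues are the 5 neuron-gene sub-clusters, purple is the vascular one, and the muscle sub-cluster (orange) is visible mainly in FR2.

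Members formed 7.32 ± 2.02% of the nuclei in right pools and 5.33 ± 0.929% in left pools (SD, n = 6 each). The left shares were 5.90%, 5.65% and 6.31% in pools ML1 to ML3 and 5.14%, 5.35% and 3.63% in pools FL1 to FL3. The right shares were 8.73%, 6.30% and 5.42% in pools MR1 to MR3 and 5.76%, 10.7% and 7.03% in pools FR1 to FR3. The groups overlapped, since MR3 and FR1 lay within the left range. The difference of 1.99 percentage points did not pass an exact permutation test (two-sided, side labels permuted within sex, 400 relabellings, p = 0.055, adjusted over 2 share tests p = 0.11).

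Without MR3, the difference was 2.37 points and passed (exact permutation p = 0.01, adjusted p = 0.02). Leaving out FR2, the pool with the highest share, gave 1.32 points (exact permutation p = 0.065, adjusted p = 0.13). The median UMIs of all nuclei ranged from 2275 (ML2) to 3626.5 (FL1) in left pools and from 2163 (MR3) to 3197 (FR1) in right pools. When all nuclei were thinned to 1000 UMIs, the difference in share was 1.63 points (exact permutation p = 0.125). Counting only the members in sub-clusters 2 and 3, a choice made after seeing the data, the difference was 0.233 points (exact permutation p = 0.54, unadjusted). By labelled sex the shares were 6.26 ± 2.42% in female-labelled and 6.38 ± 1.20% in male-labelled pools (SD, n = 6 each), a difference of -0.122 points (exact permutation p = 0.905). Over the 8 sublibraries the share ran from 6.47% to 7.02%, less than the spread between pools.

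**Figure D4:**
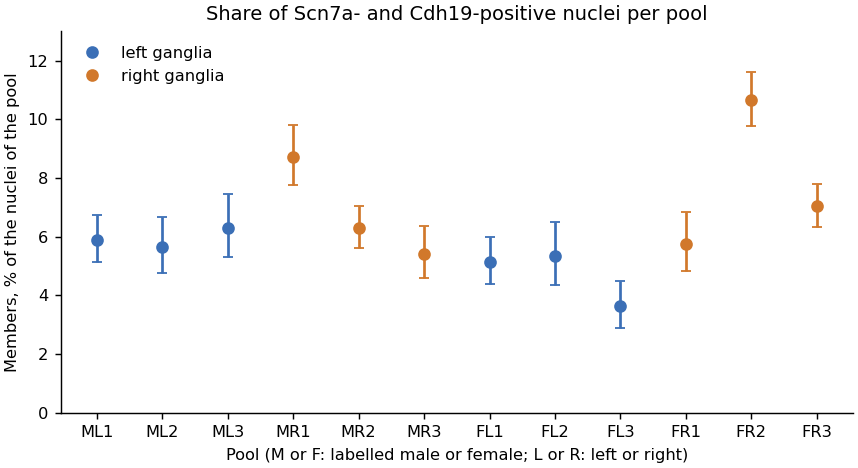
Members as a percentage of all nuclei of each pool, with exact 95% binomial intervals that cover counting error only, for left (blue) and right (orange) pools. The left pools lie between 3.63% and 6.31% and the right pools between 5.42% and 10.7%, with MR3 and FR1 inside the left range.

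No gene was called between left and right. Of 7535 genes tested in UMIs summed over the members of each pool, 0 (0%) had an adjusted p under 0.05 (edgeR quasi-likelihood test, Benjamini-Hochberg), 297 had an unadjusted p under 0.05, and DESeq2 also called 0, with 167 at that unadjusted level. The smallest p belonged to Gria1, an AMPA receptor subunit. On the left its level was 86.3, 56.3 and 44.9 CPM in pools ML1 to ML3 and 47.5, 64.5 and 84.1 CPM in pools FL1 to FL3. On the right it was 33.9, 33.4 and 18.9 CPM in pools MR1 to MR3 and 27.6, 54.0 and 40.8 CPM in pools FR1 to FR3, and the groups overlapped through FR2. The log2 fold change of right over left was -0.80 ± 0.215 (SE, adjusted p = 0.999 by edgeR's quasi-likelihood test).

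All 154 listed genes that could be tested had an adjusted p of 0.999, 5 had an unadjusted p under 0.05, and the median log2 fold change of the 154 was -0.03, against -0.01 over all genes tested. Those 5 were the mechanosensitive channel Piezo2 (log2 fold change -0.43 ± 0.14), the neurotrophin receptor Ntrk3 (-0.33 ± 0.124), Opcml (-0.66 ± 0.288), Adam22 (-0.28 ± 0.132) and P2rx7 (-0.34 ± 0.162, all SE). None of 12 Schwann lineage, 18 non-myelinating Schwann, 7 myelinating Schwann and 22 basal lamina genes had an unadjusted p under 0.05. Their median log2 fold changes were -0.02, -0.02, -0.01 and -0.02.

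By labelled sex, 2 of the 7535 genes (0.0265%) were called, both lower in female-labelled pools. Kcna1, a voltage-gated potassium channel of axons, was at 181 ± 58.0 CPM in male-labelled and 93.7 ± 28.2 CPM in female-labelled pools (SD, n = 6 each). The male-labelled values were 292, 139 and 183 CPM in pools ML1 to ML3 and 147, 182 and 141 CPM in pools MR1 to MR3. The female-labelled values were 75.5, 54.6 and 128 CPM in pools FL1 to FL3 and 123, 95.5 and 85.7 CPM in pools FR1 to FR3. Grouped by label, the pools did not overlap, and ML1 was far above the rest. Grouped by Y-linked RNA, ML1 and FL1 would change places and the groups would overlap. How many of all genes have groups without overlap was not counted. The log2 fold change was -0.95 ± 0.177 (SE, adjusted p = 0.0436 by edgeR's quasi-likelihood test).

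Whether Kcna1 was called depended on single pools and on the deepest nuclei, while its direction was the same in each alternative run. Without ML1 and FL1, the 2 pools whose Y-linked RNA goes against the label, its log2 fold change was -0.72 (edgeR adjusted p = 0.0666), and among members in sub-clusters 2 and 3 it was -0.69 (edgeR adjusted p = 0.548, in 11 pools, since FL3 had 19 such members). Without the 5% of members with the most UMIs it was -0.51 (edgeR adjusted p = 0.573). The call held in 3 of 12 fits that left out 1 pool, those without ML1, ML2 or FR1, with edgeR adjusted p from 0.021 to 0.269 over the 12. In these fits the log2 fold change stayed between -1.03 and -0.78, with an unadjusted p under 0.05 in 12 of 12. Kcna1 had 846 UMIs over all members and was at 238 CPM in sub-cluster 2 against 126 CPM in the other members. In the clustering at resolution 1 it was the fourth leading gene of sub-cluster 9 (123 nuclei, led by Syt2 and Nefh, genes of the synapse and of neurofilaments), at 459 against 111 CPM. The neuron list was also lower in female-labelled pools, at 5487 ± 333.4 against 5896 ± 291 CPM (SD, n = 6 each). Without ML1 and FL1 it was at 5449 ± 358 against 5991 ± 195 CPM (SD, n = 5 each). The part of neuronal RNA in the Kcna1 difference was not tested.

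The other called gene, ENSRNOG00000065195, has no symbol in the deposited gene list. It ranged from 127 CPM (MR1) to 288 CPM (ML3) in male-labelled pools and from 102 CPM (FL3) to 138 CPM (FL1) in female-labelled pools, and MR1 fell within the female-labelled range. Its log2 fold change was -0.78 ± 0.135 (SE, edgeR adjusted p = 0.0266), and -0.80 without ML1 and FL1 (edgeR adjusted p = 0.0153). It was called in 6 of 12 fits without 1 pool and lost without ML3, MR2, MR3, FL2, FL3 or FR2 (edgeR adjusted p from 0.000506 to 0.255 over the 12). Among the members in sub-clusters 2 and 3 it was at -0.47 (edgeR adjusted p = 0.978).

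**Figure D5:**
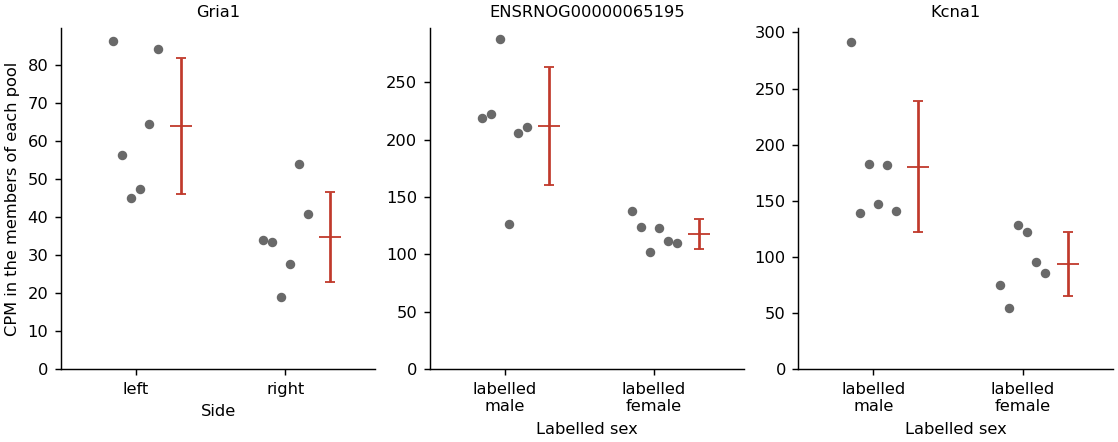
Level of Gria1 by side, and of ENSRNOG00000065195 and Kcna1 by labelled sex, in CPM in the members of each pool (points, axes from 0), with the mean and SD of the 6 pools of a group in red. Among these genes only Kcna1 shows groups that do not overlap by label, with the lowest male-labelled pool at 139 CPM and the highest female-labelled pool at 128 CPM. ML1 (292 CPM) and FL1 (75.5 CPM) have Y-linked RNA against their label, and grouped by that RNA the pools would overlap.

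Among the listed genes, Kcna1 was the only one of 154 called by labelled sex, and 19 had an unadjusted p under 0.05, as had 353 of all 7535 genes. Of 18 non-myelinating Schwann genes, 16 had a positive log2 fold change, as had 3866 of the 7535, with a median of 0.11 against 0.01 over all genes, and 4 had an unadjusted p under 0.05, of which Cadm2 had the smallest (log2 fold change 0.35 ± 0.12, SE, edgeR adjusted p = 0.85). The 4 muscle genes that could be tested had a median of 1.38, and FR2 was the pool with most muscle RNA, at 4302 CPM for the list against a median of 349 CPM over pools. With 10 pools, after ML1 and FL1 had been left out, none of 149 listed genes was called and 18 had an unadjusted p under 0.05, as had 384 of all 7132 genes. Of the 18 non-myelinating Schwann genes, 15 then had a positive log2 fold change, with a median of 0.09, and 3 had an unadjusted p under 0.05, while Cadm2 was at 0.45 ± 0.127 (SE, edgeR adjusted p = 0.456) and the median of the 4 muscle genes was 1.20. Over all genes, 10 were called by labelled sex, 3 higher and 7 lower in female-labelled pools, Kdm5d and Eif2s3y among the latter. Both belong to the 4 Y-linked genes by which ML1 and FL1 were set apart, so their calls are no independent result.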

How the data were processed

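Single-nucleus RNA sequencing was done with Evercode version 2 kits, per the labels' protocols. The submitters' processing notes name mRatBN7.2, R 4.3.2 and Seurat 4.1.3 without a role. The aligner is not given in the sources used here. Per the file headers and values, the authors deposited raw UMI counts, which equal the deposited transcript totals. Pool names came from the deposited nucleus table, which holds no map from pools to the deposited samples (sublibraries).

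Members and gene lists were chosen with earlier results of these data known. Of 231 listed genes, 222 matched by symbol and 1 by a RefSeq synonym (GRCr8 table). No doublet caller was run. UMIs were summed per pool, at 20 or more members each. Genes were tested with edgeR 4.0.16 (R 4.3.3; TMM, filterByExpr, sex plus side; SE from the F statistic) and DESeq2 1.42.0, after a test on simulated data. CPM used all UMIs of the members. Sub-clusters came from Pearson residuals of 2000 genes, 20 components and 20 neighbours (scanpy 1.11.5, leidenalg 0.10.2). Named genes were all called genes (or the smallest p), the 20 leading and 15 most variable genes and the lists. The main tests did not pair left and right pools, since the labels do not say which pools share rats. Same-numbered pools correlated between -0.06 and 0.15, which cannot show whether they do. A fit with pool number as a block was run for genes by side, and none was run for the share of members. A few genes that belong to these rules and lists are not reported here.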

Additional observations from a re-analysis of the deposited data

Results flagged for a closer look

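In 7 of 89 groups of pools or sublibraries examined, 1 sample lay far from the nearest of the others (Dixon's 95% limit), where chance gives about 1 in 20. MR1 stood apart among the 6 male-labelled pools in its share of members, 8.73%. FL2 stood apart among the 6 left pools in the myelinating Schwann list, at 2987 CPM. The skeletal muscle list stood out in 3 groups: FR2 among the 6 right pools at 4302 CPM, FL1 among the 6 left pools at 1834 CPM and MR1 among the 6 male-labelled pools at 879 CPM. Kcna1 in ML1, at 292 CPM, lay far above the other male-labelled pools. Sublibrary 7 had the highest share of members among the 8 sublibraries, 7.02%.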

How the results depend on the processing

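The share of members stayed higher on the right under all 18 alternatives, by 0.233 to 2.37 points, and passed the test in 1 of them, without MR3 (2.37 points). These points are not all of the same share. Among members, myelinating Schwann-type and satellite-type nuclei together, members made up 92.0% on the right and 89.9% on the left (2.06 points). Members in sub-clusters 2 and 3 were 2.04% against 1.81% of all nuclei (0.233 points). Leaving out 1 pool each gave 1.32 (without FR2) to 2.37 points. The difference by labelled sex changed sign after thinning (0.519 points), with Scn10a and Slc17a6 at 0 (0.0496), without ML1 and FL1 (0.00689) and in the glia-led sub-clusters (0.277, added after seeing the data). Without 1 pool it ran from -1.002 to 0.405 points, and it was positive without MR1 (0.347), FL1 (0.104), FL2 (0.0607) or FL3 (0.405). It passed the test in 0 of 18 alternatives. Calls by side numbered 0 in 20 of 21 alternatives, and 13 without the filter on low counts, muscle genes such as Ttn and Myh4 among them. Calls by labelled sex numbered 40 without that filter, 10 without ML1 and FL1, 1 with Scn7a at 3 or more UMIs, and 0 with Scn10a and Slc17a6 at 0, without the 5% of members with the most UMIs or in the glia-led sub-clusters. Leaving out 1 pool gave 0 to 7 calls. Calls by labelled sex without ML1 and FL1 included the Y-linked Kdm5d and Eif2s3y, as did the 7 calls without FL1. Without the filter they included the muscle genes Ttn and Myh4. Some settings hold fewer nuclei or genes, while the fit without the filter tested more genes (18618). The cause of these changes was not tested. With pool number within sex as a replicate block, 0 genes were called by side. Every male-labelled left pool correlated best with its own number, as did 1 of 3 female-labelled ones, as a hint from the data and not the design.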
